A study of Mus musculus with 35 samples.

Results

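Genes of the TGF-beta, BMP and Wnt signalling pathways were examined in the transcriptome of mouse hematopoietic stem/progenitor cells (HSPCs) that lack JMJD1B, a JmjC domain histone demethylase encoded by Kdm3b. Members were taken by symbol from the deposited table of expression values (Smad, Tgfb, Bmp, Acvr, Smurf, Ski, Skil and Ltbp names for the TGF-beta and BMP pathway, and Wnt, Fzd, Lrp5, Lrp6, Axin, Dvl, Apc, Gsk3, Ctnnb, Tcf7 and Lef1 names for the Wnt pathway). Of 11982 gene names in the table, 49 matched. They fall into 28 genes of the TGF-beta and BMP pathway and 21 genes of the Wnt pathway, and the pathways are described apart.

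Polyadenylated RNA was sequenced from 2 wild-type (WT) libraries and 2 JMJD1B-/- libraries of bone marrow HSPCs. The knockout mice carry a gene-trap allele that came from embryonic stem cells of 129P2 background, in every tissue of the animal, and the labels give the strain 129P2xC57BL/6J for both genotypes. Per the methods, both sexes were included at ages between 20 and 40 weeks, but neither age nor sex is given per library. The sources used here do not state how many animals a library holds, so p-values rest on spread between these libraries. The limma p-values used below take that spread partly from the other genes tested.

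TGF-beta and BMP ligands bind pairs of type I and type II serine/threonine kinase receptors, which phosphorylate receptor-regulated Smads. These join Smad4 and enter the nucleus, while Smad7, the Smurf ubiquitin ligases and the corepressors Ski and Skil restrain the signal. TGF-beta is known in bone marrow for holding stem cells in quiescence. In canonical Wnt signalling, Frizzled and Lrp5 or Lrp6 receptors act through Dishevelled to inactivate a complex of Axin, Apc and Gsk3 that otherwise marks beta-catenin for degradation. Stabilised beta-catenin then binds TCF/LEF factors on DNA.

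Expression is given as RPKM, a read density scaled for transcript length and library size, so levels can be compared between genes. The table holds only genes that reach 1 RPKM in at least 1 library. Depth, estimated from genes with few reads, was about 17500000 and 24600000 reads in WT replicates 1 and 2, and 6100000 and 21000000 reads in JMJD1B-/- replicates 1 and 2. On a transcript of 1 kb, a count of 3 reads is thus worth 0.171, 0.122, 0.491 and 0.143 RPKM. These limits cover counting error alone. Kdm3b itself had 31.0 and 24.3 RPKM in WT and 4.00 and 4.63 RPKM in JMJD1B-/- HSPCs, a log2 fold change of -2.65 with a standard error (SE) of 0.24 (limma, adjusted p = 0.0314). All 10 HSPC markers examined (Kit, Cd34, Flt3 and others) were listed, with summed levels of 527, 478, 347 and 487 RPKM in WT replicates 1 and 2 and JMJD1B-/- replicates 1 and 2, sums in which Myb is the largest part. Single HSPC markers differed more than the sums. By the limma test described below, 4 of the 10 were called lower, among them Cd34 (42.9 and 43.5 RPKM in WT, 20.9 and 11.7 RPKM in JMJD1B-/-) and Flt3 (25.1 and 32.6 RPKM in WT, 18.4 and 3.37 RPKM in JMJD1B-/-), and 1, Gfi1b, was called higher (24.3 and 23.2 RPKM in WT, 35.5 and 50.7 RPKM in JMJD1B-/-). Over all genes, 6.33% were called lower and 3.81% higher. Markers of other cells were present and moved with genotype or library. Those of erythroid cells summed to 210 and 319 RPKM in WT and 529 and 1125 RPKM in JMJD1B-/- HSPCs, those of basophils and mast cells to 461 and 537 against 101.4 and 46.1 RPKM, and those of granulocytes to 268 and 182 against 82.4 and 53.1 RPKM. The 9 granulocyte markers went opposite ways: 4 early granule genes, Mpo, Elane, Ctsg and Prtn3, carry the sum and lay below both WT libraries, while S100a8, S100a9 and Ltf lay above them. Of all genes tested, 22.7% lay below and 20.1% above. Monocyte and macrophage markers (6 of 8 listed) summed to 87.6 and 87.1 against 83.6 and 22.7 RPKM, stroma and endothelium markers (7 of 8 listed) to 11.3 and 42.8 against 8.29 and 6.34 RPKM, and 1 of 8 B cell markers was listed, at 0.631 to 3.28 RPKM. In these bulk samples, fewer cells of a type and less RNA per cell cannot be told apart.

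Genes with a mean of at least 0.5 RPKM over the 4 libraries were tested with limma on log2(RPKM + 0.1), a scale on which changes of low genes are understated, and all fold changes are JMJD1B-/- against WT on that scale. A gene is called lower or higher at an unadjusted p under 0.05. Of 11863 genes tested, 6.33% were called lower and 3.81% higher, and 0.0337% and 0.00843% were so after Benjamini-Hochberg adjustment. With 2 libraries per genotype, an exact permutation test of a single gene cannot give a two-sided p below 0.333.

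The promoters of the 3 members called lower, Smad1, Acvr1b and Ltbp1, are shown first, since they are the members whose RNA passed the unadjusted threshold. Each is the 250 bases before a transcription start in RefSeq (GRCm38.p6; the submitters' processing notes name mm9 for the deposited values, so these coordinates belong to GRCm38.p6 alone), written 5′ to 3′ on the gene's strand. Capitals mark CAGACA, or its reverse complement, which is the core of the CAGA box that Smad3 and Smad4 bind. Ltbp1 has a pair of starts in this table.

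Smad1 (chr8:79399429-79399678, - strand): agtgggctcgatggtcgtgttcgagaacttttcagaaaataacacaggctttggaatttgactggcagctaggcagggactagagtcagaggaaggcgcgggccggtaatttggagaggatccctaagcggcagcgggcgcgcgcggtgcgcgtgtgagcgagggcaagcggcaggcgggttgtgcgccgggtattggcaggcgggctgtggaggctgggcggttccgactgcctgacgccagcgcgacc
Acvr1b (chr15:101173822-101174071, + strand): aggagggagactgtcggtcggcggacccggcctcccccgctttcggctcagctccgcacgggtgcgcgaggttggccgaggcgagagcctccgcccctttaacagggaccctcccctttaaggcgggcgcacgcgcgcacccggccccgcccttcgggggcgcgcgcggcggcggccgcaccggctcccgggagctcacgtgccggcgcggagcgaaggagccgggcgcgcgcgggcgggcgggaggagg
Ltbp1, first start (chr17:75005279-75005528, + strand): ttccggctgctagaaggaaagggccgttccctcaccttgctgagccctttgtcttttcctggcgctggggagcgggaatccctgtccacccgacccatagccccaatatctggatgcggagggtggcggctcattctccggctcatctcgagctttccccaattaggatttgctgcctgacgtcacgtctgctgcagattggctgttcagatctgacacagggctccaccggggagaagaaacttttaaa
Ltbp1, second start (chr17:75178531-75178780, + strand): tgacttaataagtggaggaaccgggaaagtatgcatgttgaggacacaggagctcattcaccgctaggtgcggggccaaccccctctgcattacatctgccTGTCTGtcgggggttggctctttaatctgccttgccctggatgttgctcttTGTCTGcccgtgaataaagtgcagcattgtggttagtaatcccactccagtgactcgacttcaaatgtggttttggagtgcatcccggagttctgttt

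The CAGA core occurs at 2 places in the second Ltbp1 window and nowhere in the others shown. RefSeq promoters were found for 33 of the 49 members, 19 of the TGF-beta and BMP pathway and 14 of the Wnt pathway, in 45 windows. On both strands, CAGACA was found in 12.5% of 24 TGF-beta and BMP windows (Ltbp1, Smurf1 and Tgfbr1), in 4.76% of 21 Wnt windows (Lef1), in 13.1% of the 10786 windows of genes listed in the table and in 17.1% of all 32851 windows. The GC-rich Smad box GGCGCC was found in 33.3% of TGF-beta and BMP windows and 38.1% of Wnt windows, against 16.1% of windows of listed genes and 9.59% of all windows. Median GC content moved with it: 68.4% in windows of members, 59.6% in those of listed genes and 52.4% in all. The palindrome GTCTAGAC was in no member window (0.185% of windows of listed genes), and neither was CTTTGAT, the TCF/LEF core (2.22% of windows of listed genes). A match is a description of the letters and not of binding.

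**Figure D1:**
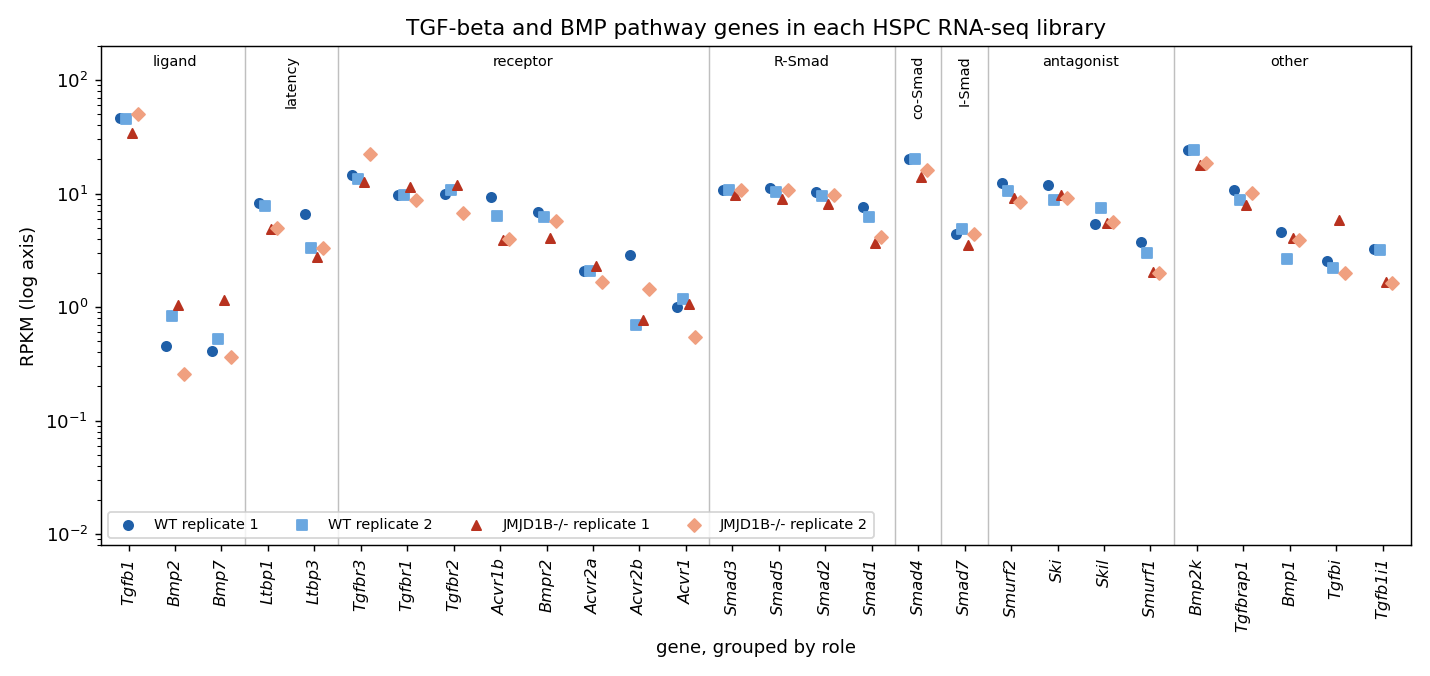
RPKM (log axis) of the 28 TGF-beta and BMP genes in each of the 4 HSPC libraries, grouped by role along the x axis, where "other" marks genes that share the name but not the signalling chain. Levels run from 0.256 to 50.1 RPKM, and in Acvr1b, Smad1 and Ltbp1 both JMJD1B-/- points lie below both WT points.

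In the TGF-beta and BMP pathway, the activin type I receptor Acvr1b, the BMP-branch Smad Smad1 and the latency protein Ltbp1 were called lower in JMJD1B-/- HSPCs, and none was called higher. Their levels were 50.0%, 56.8% and 60.9% of WT. The 3 genes are 10.7% of the 28 tested, beside 6.33% of all genes called lower, and none passed adjustment over all genes, by limma or by the gene-by-gene test, which called 5 at an unadjusted p under 0.05. Leaving out WT replicate 1 left 0 of the 3 called, and leaving out WT replicate 2 left 1 gene of the pathway called lower, while 5 and 7 were called lower without JMJD1B-/- replicate 1 or 2, and over all genes the shares called lower at these 4 settings were 1.49%, 2.29%, 11.03% and 15.3%. Among the 28 genes, 23 (82.1%) had a log2 fold change below 0, as 53.0% of all genes did. Their median log2 fold change was -0.20, beside -0.025 over all genes, and -0.093 beside 0.017 under quantile normalization. In 10 genes the 2 knockout levels were under both WT levels (35.7%, against 22.7% of all genes), and in 0 genes they were over them (against 20.1%). In 20 of the 28 genes the gap between replicates of one genotype exceeded the difference between genotypes.

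Of 13 ligand genes the name rule could reach, 3 were listed. Tgfb1, which encodes the main TGF-beta of blood cells, was the most abundant member of the pathway, with 46.8 and 45.6 RPKM in WT and 34.0 and 50.1 RPKM in JMJD1B-/- replicates 1 and 2. The WT libraries lay between the JMJD1B-/- libraries, and the log2 fold change of -0.16 (SE 0.22) turns to 0.12 without JMJD1B-/- replicate 1 and is -0.44, called, without JMJD1B-/- replicate 2. Bmp2 and Bmp7 stayed near the limit of the table, between 0.256 and 1.16 RPKM, and each reached 1 RPKM only in JMJD1B-/- replicate 1, the shallowest library. Tgfb1 made up 93.9% to 98.8% of the summed RPKM of the 3 ligands in every library.

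The latent TGF-beta binding proteins tether the inactive ligand to the matrix. Ltbp1 had 8.31 and 7.80 RPKM in WT and 4.86 and 4.95 RPKM in JMJD1B-/- HSPCs. The genotypes did not overlap, replicates differed by 0.09 and 0.03 on the log2 scale, and the log2 fold change was -0.70 (SE 0.26, unadjusted p = 0.0287, limma adjusted p = 0.438). The call is lost without either WT library, with log2 fold changes of -0.66 without replicate 1 and -0.75 without replicate 2. Ltbp3 had 6.65 and 3.29 RPKM in WT and 2.76 and 3.30 RPKM in JMJD1B-/- HSPCs, so that one WT library stood apart and the other fell within the JMJD1B-/- range. The rule could reach 4 such genes, and these 2 are the ones listed. Ltbp1 is known in platelets, and the summed megakaryocyte and platelet markers were lower in the same libraries. All 8 of them were listed, none at 0, and they summed to 701 and 635 RPKM in WT and 276 and 390 RPKM in JMJD1B-/- HSPCs. Both JMJD1B-/- libraries were below both WT libraries in 5 of them and above in 0 (62.5% and 0%, against 22.7% and 20.1% of all genes). Pf4, the platelet factor, had 348 and 308 against 92.8 and 167 RPKM. Their part in the result was not tested.

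Of the 8 receptor genes listed, 1 was called lower (12.5%, beside 6.33% of all genes). Acvr1b, the type I receptor for activins (ALK4), had 9.28 and 6.39 RPKM in WT and 3.86 and 3.97 RPKM in JMJD1B-/- HSPCs, a log2 fold change of -0.96 (SE 0.30, unadjusted p = 0.0152, limma adjusted p = 0.391). The JMJD1B-/- libraries lay close together and below both WT libraries, while the WT libraries differed from each other by 0.53 on the log2 scale. Without WT replicate 1, the higher of them, the log2 fold change was -0.69 and the call was lost, as it was under the gene-by-gene test. Tgfbr1, the TGF-beta type I receptor (ALK5), overlapped between genotypes. It had 9.67 and 9.65 RPKM in WT and 11.5 and 8.86 RPKM in JMJD1B-/- HSPCs, on either side of the WT libraries. Among the 3 type I receptors listed (Acvr1b, Tgfbr1 and Acvr1, at 0.550 to 1.19 RPKM), Acvr1b made up 46.5% and 37.1% of the summed RPKM in WT and 23.5% and 29.7% in JMJD1B-/- HSPCs. Their summed level moved less, from 19.96 and 17.2 RPKM in WT to 16.5 and 13.4 RPKM in JMJD1B-/- HSPCs.

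The type II receptors bind ligand first. Tgfbr2 had 9.99 and 10.9 RPKM in WT and 12.0 and 6.74 RPKM in JMJD1B-/- HSPCs, which overlap. Bmpr2, the BMP type II receptor, had 6.96 and 6.27 RPKM in WT and 4.03 and 5.80 RPKM in JMJD1B-/- HSPCs, a log2 fold change of -0.44 (SE 0.30). The genotypes did not overlap in Bmpr2, but its JMJD1B-/- libraries differed from each other by more than the genotypes did. The activin type II receptors Acvr2a and Acvr2b ranged from 0.698 to 2.89 RPKM, and the genotypes overlapped in both. Tgfbr3 (betaglycan), a co-receptor that presents ligand, had 14.5 and 13.4 RPKM in WT and 12.6 and 22.3 RPKM in JMJD1B-/- replicates 1 and 2. One JMJD1B-/- library was below WT and the other above, and the log2 fold change of 0.26 turns to -0.15 when JMJD1B-/- replicate 2 is left out and is 0.67, called, when JMJD1B-/- replicate 1 is.

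Of the 4 receptor-regulated Smads listed, 1 was called lower (25%, beside 6.33% of all genes). Smad1, a Smad of the BMP branch, had 7.67 and 6.20 RPKM in WT and 3.69 and 4.19 RPKM in JMJD1B-/- HSPCs. Means were 6.94 ± 1.04 and 3.94 ± 0.3495 RPKM (SD, n = 2 libraries each), the log2 fold change was -0.80 (SE 0.29, limma unadjusted p = 0.0279, adjusted p = 0.435), and the genotypes did not overlap. Fold changes without WT replicate 1 (-0.64) and without WT replicate 2 (-0.95) were not called. Smad5, the other listed Smad of that branch, had 11.2 and 10.2 RPKM in WT and 8.90 and 10.8 RPKM in JMJD1B-/- HSPCs, which overlap. Smad1 thus took 40.6% and 37.7% of the summed RPKM of Smad1 and Smad5 in WT and 29.3% and 28.0% in JMJD1B-/- HSPCs. The Smads of the TGF-beta branch differed between genotypes by less than their JMJD1B-/- replicates did, but by more than their WT replicates. On the log2 scale, replicate gaps in WT and JMJD1B-/- were 0.008 and 0.129 for Smad3 and 0.132 and 0.254 for Smad2. Smad3 had 10.7 and 10.8 RPKM in WT and 9.82 and 10.7 RPKM in JMJD1B-/- HSPCs, with a log2 fold change of -0.06 and a 95% interval from -0.58 to 0.45. Smad2 had a log2 fold change of -0.15 with an interval from -0.71 to 0.41. Smad3's share of the 2 genes was 50.8% to 54.6% in the 4 libraries.

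Smad4, the partner shared by both branches, had 20.03 and 20.08 RPKM in WT and 14.0 and 16.3 RPKM in JMJD1B-/- HSPCs. Both JMJD1B-/- libraries were lower, and the log2 fold change was -0.41 (SE 0.20, limma adjusted p = 0.554), which is called under median-ratio scaling, under quantile normalization and without JMJD1B-/- replicate 2 (-0.51). Smad7, the inhibitory Smad that TGF-beta itself induces, had 4.44 and 4.86 RPKM in WT and 3.50 and 4.42 RPKM in JMJD1B-/- HSPCs. Its higher JMJD1B-/- library was nearly level with the lower WT library, and the JMJD1B-/- replicates differed from each other by more than the genotypes did, while the WT replicates did not.

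The Smurf ubiquitin ligases, which target Smads and receptors, were both below both WT libraries and were not called. Smurf1 had 3.76 and 3.02 RPKM in WT and 2.06 and 1.996 RPKM in JMJD1B-/- HSPCs, a log2 fold change of -0.71 (SE 0.38, limma adjusted p = 0.582) that is called by limma without a trend and by the gene-by-gene test. Smurf2, the more abundant of the pair, had 12.4 and 10.5 RPKM in WT and 9.11 and 8.42 RPKM in JMJD1B-/- HSPCs, a log2 fold change of -0.38 (SE 0.23). Smurf1 was 23.3% and 22.3% of their summed RPKM in WT and 18.4% and 19.2% in JMJD1B-/- HSPCs. The corepressors Ski and Skil, which hold Smad targets off, ranged from 5.39 to 11.9 RPKM, and the genotypes overlapped in both.

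The name rule also brought in 5 genes that do not belong to the signalling chain, and none was called. Tgfb1i1 (Hic-5), a focal adhesion protein, had 3.22 and 3.21 RPKM in WT and 1.68 and 1.63 RPKM in JMJD1B-/- HSPCs. Its replicates differed by at most 0.04 on the log2 scale, and the log2 fold change was -0.92 (SE 0.40, limma unadjusted p = 0.0514, adjusted p = 0.491), called under 6 of 13 other settings. Bmp2k, a kinase of endocytosis, had 24.2 and 24.1 RPKM in WT and 18.01 and 18.4 RPKM in JMJD1B-/- HSPCs, a log2 fold change of -0.40 (SE 0.19, limma adjusted p = 0.521), and it was called lower under median-ratio scaling, quantile normalization and the gene-by-gene test. In Tgfbi, Bmp1 and Tgfbrap1 the genotypes overlapped, and Tgfbi reached 5.90 RPKM in JMJD1B-/- replicate 1 against 2.01 to 2.57 RPKM elsewhere. Without these 5 genes, 20 of 23 log2 fold changes were below 0, with a median of -0.21 and the same 3 genes called.

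**Figure D2:**
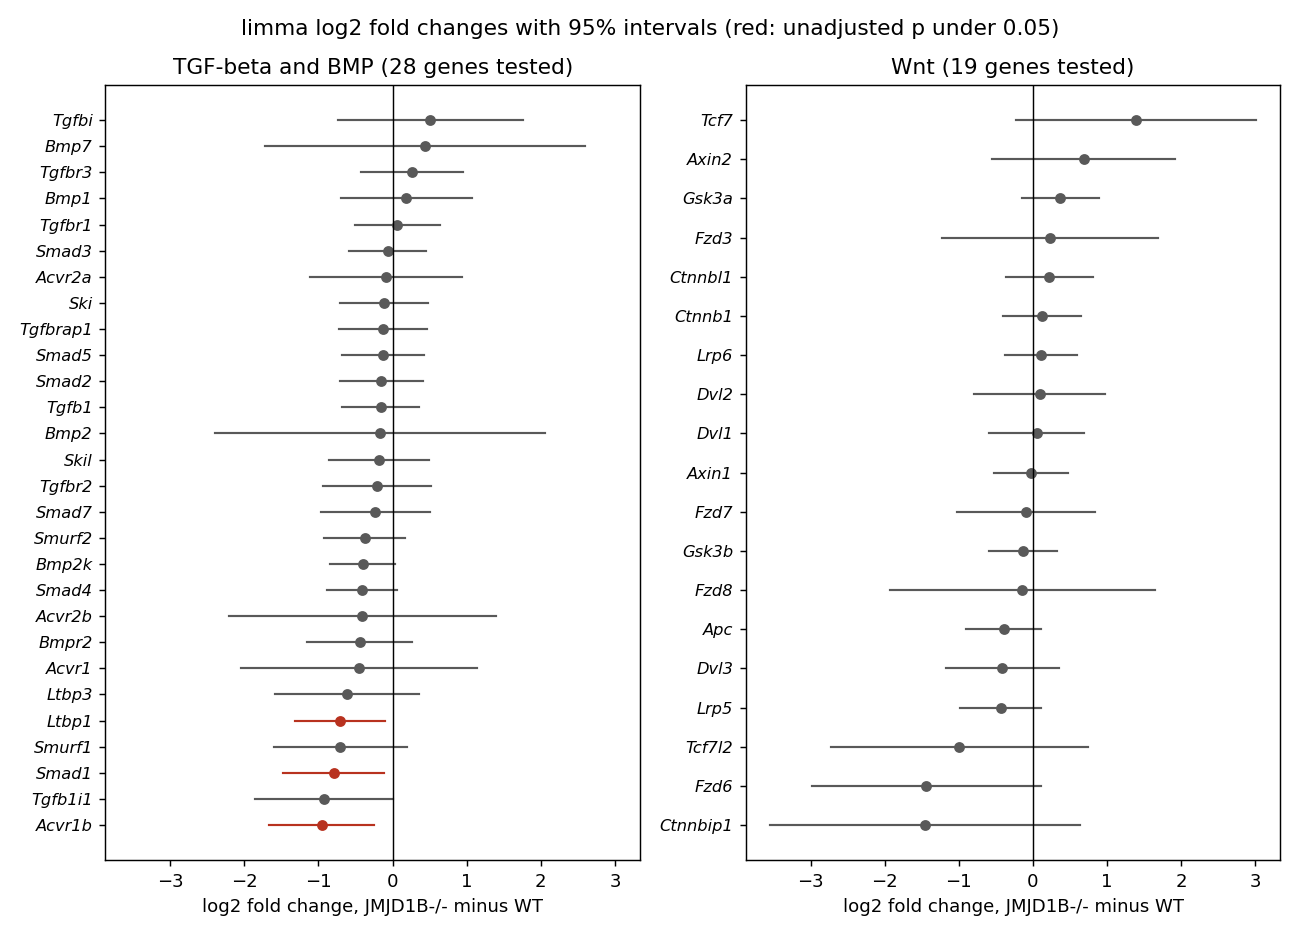
limma log2 fold changes (points, x axis, JMJD1B-/- minus WT) with 95% confidence intervals (lines) of the 28 TGF-beta and BMP genes and the 19 Wnt genes tested, ordered by fold change, with red for an unadjusted p under 0.05. Acvr1b (-0.96), Smad1 (-0.80) and Ltbp1 (-0.70) are the red genes, and every Wnt interval includes 0.

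Beyond the members, 73 further genes of TGF-beta and BMP signalling were listed by name (other ligands, antagonists, adaptors, Smad regulators and targets). Of these, 33 were in the table and 32 were tested, with 2 called lower, 1 called higher and 0 after adjustment (the gene-by-gene test called 2 higher and also 0 after adjustment). The 2 called lower are 6.25% of the list, beside 6.33% of all genes, and 3.81% of all genes were called higher. Their median log2 fold change was -0.05, and 12 lay below both WT libraries and 3 above (37.5% and 9.38%, against 22.7% and 20.1% of all genes). Fkbp1a (FKBP12), which binds type I receptors and keeps them inactive without ligand, had 16.0 and 17.2 RPKM in WT and 7.56 and 6.84 RPKM in JMJD1B-/- HSPCs. It stayed lower under all 13 other settings, with a log2 fold change of -1.20 (SE 0.22, limma unadjusted p = 0.000859, adjusted p = 0.166). RefSeq lists pseudogenes of Fkbp1a, and how reads shared with them were counted is not given in the sources used here. Thbs1, a platelet and matrix protein that can activate latent TGF-beta, had 30.5 and 47.7 RPKM in WT and 25.2 and 18.5 RPKM in JMJD1B-/- HSPCs, and the call (log2 fold change -0.82, limma unadjusted p = 0.0182, adjusted p = 0.409) is lost without WT replicate 2 (-0.50), under limma without a trend and under the gene-by-gene test. Lefty1, a secreted antagonist of Nodal, was the gene called higher, at 0.675 and 0.683 RPKM in WT and 2.65 and 2.57 RPKM in JMJD1B-/- HSPCs (log2 fold change 1.80, SE 0.52). It reached 1 RPKM in the 2 JMJD1B-/- libraries alone and is in the table only through the genotype in which it is high, so its place among the called genes is no support for a difference. Its call is lost without WT replicate 1 or 2, at log2 fold changes of 1.79 and 1.81.

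**Figure D3:**
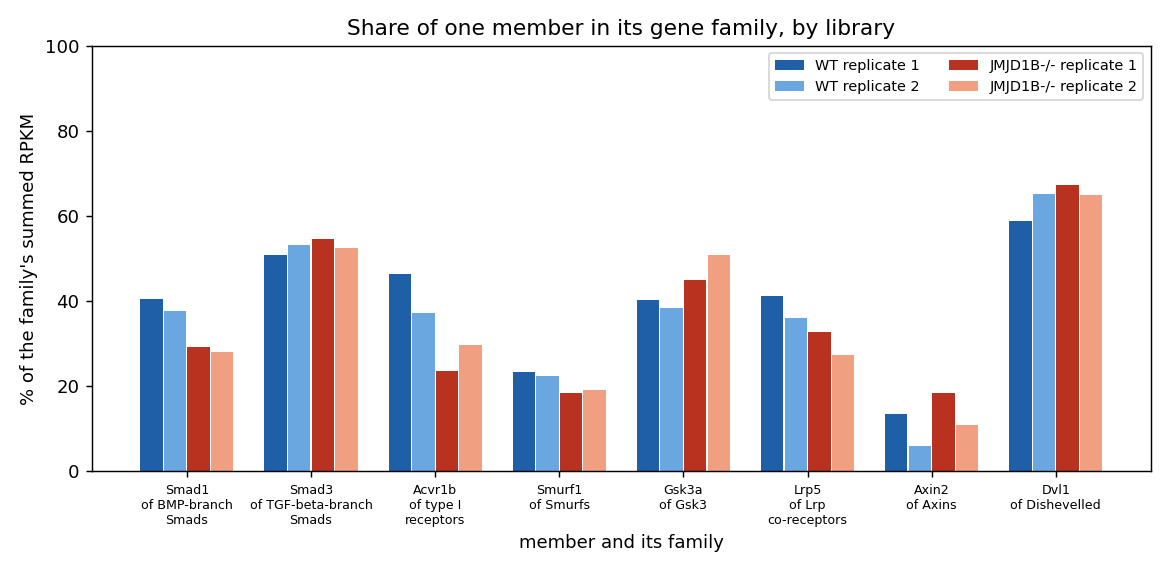
Share of one gene in the summed RPKM of its listed family (y axis, %), as bars for each of the 4 libraries. For Smad1, Acvr1b, Smurf1 and Lrp5 both JMJD1B-/- bars are below both WT bars, for Gsk3a both are above, and for Smad3, Axin2 and Dvl1 they overlap.

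In the Wnt pathway, no gene was called: 0 of 19 tested genes were lower and 0 higher at an unadjusted p under 0.05 by limma, beside 6.33% and 3.81% of all genes, and the gene-by-gene test called 1 lower and 0 higher. Without WT replicate 2, 1 was lower, without JMJD1B-/- replicate 2, 3 were lower and 1 higher, and without JMJD1B-/- replicate 1, 2 were higher. Of all genes, 2.29% were lower without WT replicate 2, 15.3% lower and 6.13% higher without JMJD1B-/- replicate 2, and 10.6% higher without JMJD1B-/- replicate 1. Lef1 and Fzd9 had a mean under the filter. Of the 19 genes, 10 had a log2 fold change below 0 and 9 above. The median was -0.03, a value whose sign changes with the processing. Both JMJD1B-/- libraries were below both WT libraries in 6 genes and above in 2 (31.6% and 10.5%, against 22.7% and 20.1% of all genes). The 6 genes include Fzd6 and Tcf7l2, which are in the table only through WT libraries. Their place in this count is thus no support for a difference. None of the 19 Wnt ligand symbols that the rule could reach is among the names analysed here.

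**Figure D4:**
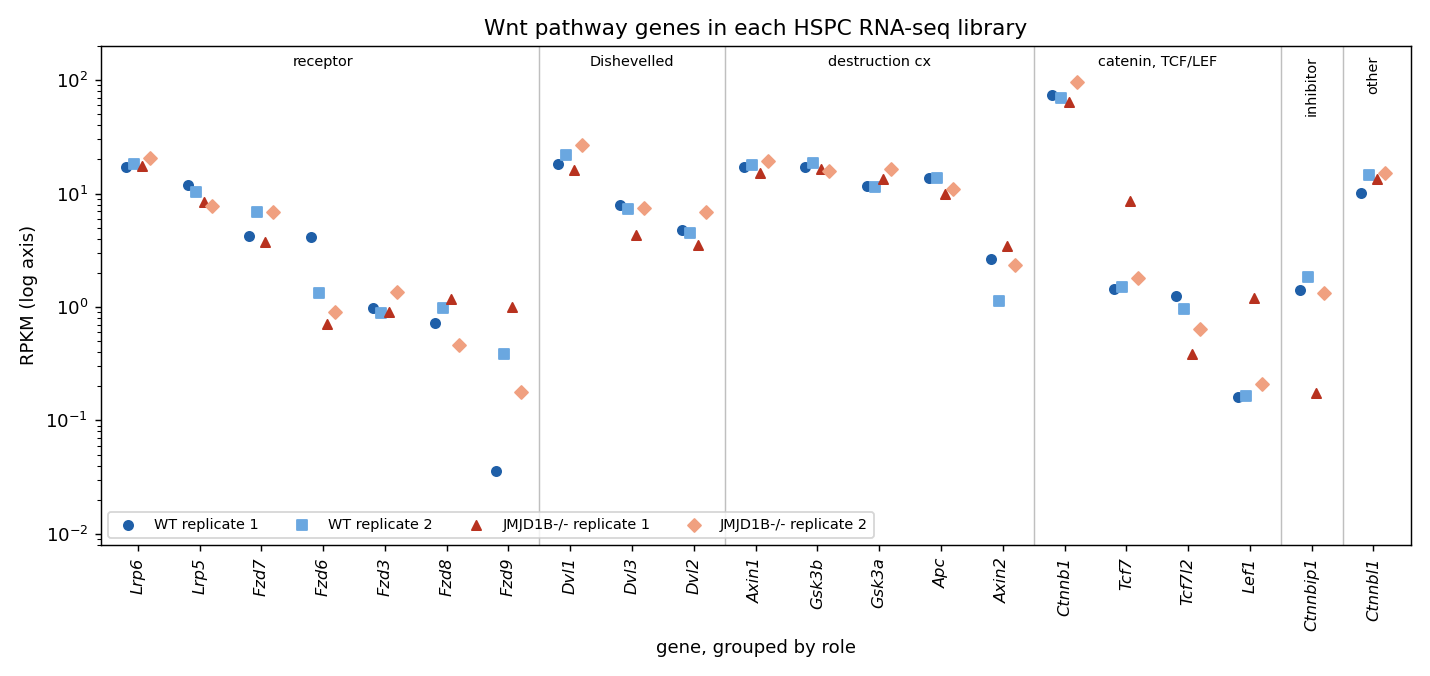
RPKM (log axis) of the 21 Wnt genes in each of the 4 HSPC libraries, grouped by role along the x axis (destruction cx, destruction complex). Ctnnb1 is the most abundant, and JMJD1B-/- replicate 1 stands above the other libraries in Tcf7, Lef1 and Fzd9 and below them in Ctnnbip1.

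The co-receptors Lrp5 and Lrp6 were the most abundant receptors. Lrp6 had 17.0 and 18.3 RPKM in WT and 17.4 and 20.8 RPKM in JMJD1B-/- HSPCs, which overlap. Lrp5 had 11.8 and 10.3 RPKM in WT and 8.47 and 7.83 RPKM in JMJD1B-/- HSPCs, lower in both libraries with a log2 fold change of -0.43 (SE 0.23, limma adjusted p = 0.582). Lrp5 was 41.1% and 35.9% of the summed RPKM of the pair in WT and 32.8% and 27.4% in JMJD1B-/- HSPCs. Of the Frizzled receptors that bind Wnt, Fzd7 was the most abundant by mean, at 3.71 to 6.83 RPKM, and its genotypes overlapped. Fzd6 had 4.11 and 1.33 RPKM in WT and 0.711 and 0.906 RPKM in JMJD1B-/- HSPCs. WT replicate 1 stood apart from the other 3 libraries, and the log2 fold change of -1.44 (SE 0.66, limma adjusted p = 0.511) is -0.66 without it. It is -2.22 without WT replicate 2 and -1.59 without JMJD1B-/- replicate 2, both called. Fzd6 reached 1 RPKM in the WT libraries alone, and is in the table only through them. Fzd3, Fzd8 and Fzd9 each reached 1 RPKM in 1 library only, the first in JMJD1B-/- replicate 2 and the others in JMJD1B-/- replicate 1.

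The Dishevelled proteins pass the signal on from Frizzled. Dvl1 had 18.1 and 22.0 RPKM in WT and 16.1 and 26.6 RPKM in JMJD1B-/- HSPCs, with the WT values inside the knockout range, and the log2 fold change of 0.05 is -0.31 without JMJD1B-/- replicate 2 and 0.41 without JMJD1B-/- replicate 1. In Dvl2 and Dvl3 the genotypes overlapped as well. In all 3 genes JMJD1B-/- replicate 1 had the lowest level.

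In the destruction complex, Axin1, its scaffold, had 17.3 and 17.7 RPKM in WT and 15.2 and 19.2 RPKM in JMJD1B-/- HSPCs, with a log2 fold change of -0.03 and a 95% interval from -0.53 to 0.47. Axin2, a target through which Wnt signalling limits itself, had 2.66 and 1.12 RPKM in WT and 3.45 and 2.35 RPKM in JMJD1B-/- HSPCs, and the genotypes overlapped. The kinases Gsk3a and Gsk3b lay on opposite sides of WT. Gsk3a had 11.6 and 11.5 RPKM in WT and 13.5 and 16.6 RPKM in JMJD1B-/- HSPCs (log2 fold change 0.37, SE 0.22), above both WT libraries. Gsk3b had 17.2 and 18.4 RPKM in WT and 16.5 and 16.0 RPKM in JMJD1B-/- HSPCs (log2 fold change -0.13, SE 0.20), below both. Neither was called, and Gsk3a's share of their summed RPKM was 40.3% and 38.5% in WT and 45.0% and 50.9% in JMJD1B-/- HSPCs. Apc, the tumour suppressor of the complex, had 13.6 and 13.7 RPKM in WT and 9.87 and 10.9 RPKM in JMJD1B-/- HSPCs, a log2 fold change of -0.40 (SE 0.22, limma adjusted p = 0.583). In RefSeq (GRCm38.p6), 21 annotated genes lie between Apc and Kdm3b, the disrupted gene, on chromosome 18. A difference in strain between the genotypes around Kdm3b was not tested.

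Ctnnb1, which encodes beta-catenin, was the most abundant of the 49 members. It had 73.7 and 69.8 RPKM in WT and 63.8 and 95.4 RPKM in JMJD1B-/- replicates 1 and 2, one below and one above both WT libraries. The log2 fold change was 0.12 with a 95% interval from -0.40 to 0.65, and it is -0.17 without JMJD1B-/- replicate 2 and 0.41, called, without replicate 1. The promoters of Ctnnb1 and of Axin2, the central protein of the pathway and its feedback target, follow in the same form as above (GRCm38.p6). Of the pair of Ctnnb1 starts in RefSeq the upstream one is shown. Neither window holds the TCF/LEF core, the CAGA core or the GC-rich Smad box in the 250 bases. The window of the other Ctnnb1 start holds the GC-rich Smad box.

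Ctnnb1 (chr9:120933150-120933399, + strand): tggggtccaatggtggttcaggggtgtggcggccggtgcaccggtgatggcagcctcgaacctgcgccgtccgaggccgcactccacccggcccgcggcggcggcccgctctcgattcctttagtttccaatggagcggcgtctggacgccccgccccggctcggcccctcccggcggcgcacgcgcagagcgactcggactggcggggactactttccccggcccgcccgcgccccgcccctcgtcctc
Axin2 (chr11:108920099-108920348, + strand): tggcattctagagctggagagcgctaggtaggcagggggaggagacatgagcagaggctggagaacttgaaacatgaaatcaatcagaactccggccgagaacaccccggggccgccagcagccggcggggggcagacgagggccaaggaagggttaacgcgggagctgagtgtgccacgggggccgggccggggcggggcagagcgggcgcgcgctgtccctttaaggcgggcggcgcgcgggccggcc

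Ctnnbip1 (ICAT), which keeps beta-catenin from TCF/LEF factors, had 1.41 and 1.85 RPKM in WT and 0.174 and 1.33 RPKM in JMJD1B-/- replicates 1 and 2. In JMJD1B-/- replicate 1, 3 reads give 0.491 RPKM on a transcript of 1 kb and 0.164 RPKM on one of 3 kb, so the lowest value rests on few reads. The log2 fold change of -1.46 (SE 0.89) is -0.27 without JMJD1B-/- replicate 1 and -2.65, called, without JMJD1B-/- replicate 2. Ctnnbl1, a splicing protein with a similar name, had 10.2 and 14.6 RPKM in WT and 13.4 and 15.2 RPKM in JMJD1B-/- HSPCs, and its genotypes overlapped.

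Among TCF/LEF factors, Tcf7 and Lef1 had both knockout levels over both WT levels, and JMJD1B-/- replicate 1 stood far above the other. Tcf7 (TCF-1), a factor of T cells and stem cells, had 1.43 and 1.48 RPKM in WT, 8.67 RPKM in JMJD1B-/- replicate 1 and 1.80 RPKM in JMJD1B-/- replicate 2. Both JMJD1B-/- libraries exceeded WT, and the gap between them, 2.21 on the log2 scale, exceeded the difference between genotype means. The log2 fold change was 1.39 (SE 0.69, limma adjusted p = 0.554). It was 2.49, called, without JMJD1B-/- replicate 2 and 0.29 without JMJD1B-/- replicate 1, fits that each rest on 1 knockout library. Lef1, a factor of lymphoid cells, had 0.162 and 0.165 RPKM in WT and 1.19 and 0.209 RPKM in JMJD1B-/- replicates 1 and 2, and was listed through 1 library. Without the filter its log2 fold change was 1.26 (SE 1.27, limma adjusted p = 0.768). Tcf7l2 (TCF-4), which is in the table only through WT replicate 1, had 1.25 and 0.952 RPKM in WT and 0.386 and 0.637 RPKM in JMJD1B-/- HSPCs, a log2 fold change of -0.99 (SE 0.74, limma adjusted p = 0.677) that is called by limma without a trend. Tcf7 took 50.4% and 57.1% of the summed RPKM of the 3 factors in WT and 84.6% and 68.0% in JMJD1B-/- replicates 1 and 2.

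T and NK cell markers were also highest in the library in which Tcf7 and Lef1 stood out. Of 10 markers, 9 were listed, none at 0, and 8 of the 9 had their highest level in JMJD1B-/- replicate 1. The files list genes that reach 1 RPKM in some library: Cd3d, Cd247 and Cd8a reached it in that library alone, as Lef1 did, and Cd3g and Bcl11b in JMJD1B-/- libraries alone, so being listed already required their high level there. They summed to 24.1 and 33.0 RPKM in WT and 85.7 and 20.4 RPKM in JMJD1B-/- replicates 1 and 2. Cd3g, a chain of the T cell receptor complex, had 0.444 and 0.474 RPKM in WT and 11.7 and 1.66 RPKM in JMJD1B-/- replicates 1 and 2. Nkg7, a granule protein of NK and cytotoxic T cells, went the other way, with 14.0 and 15.3 RPKM in WT and 7.19 and 4.84 RPKM in JMJD1B-/- HSPCs. The part of these markers in the levels of Tcf7 and Lef1 was not tested.

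**Figure D5:**
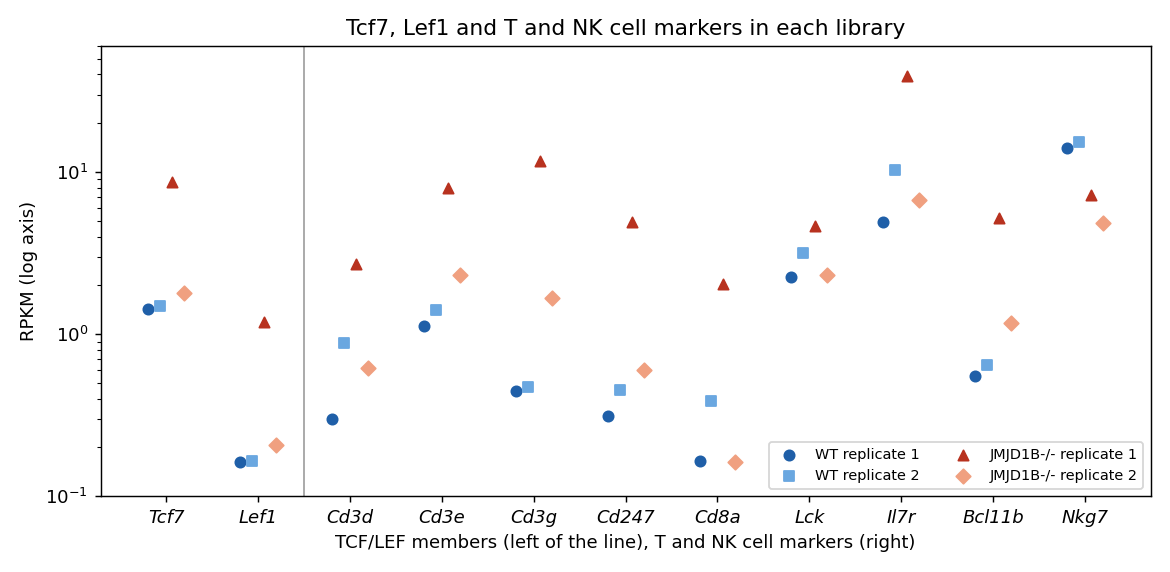
RPKM (log axis) of Tcf7 and Lef1 (left of the line) and of the 9 T and NK cell markers listed (right) in each of the 4 libraries. JMJD1B-/- replicate 1 is the highest library in Tcf7, Lef1 and 8 of the 9 markers, of which Lef1, Cd3d, Cd247 and Cd8a are listed through that library alone.

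Of 88 further Wnt pathway genes, 57 were listed and tested. There, 1 was called lower and 2 higher, 0 after adjustment (by the gene-by-gene test, 1 higher and 0 after adjustment), and the median log2 fold change was -0.05. The share called lower was 1.75%, and over all genes 6.33% were called lower and 3.81% higher. In 12 genes both JMJD1B-/- libraries were below both WT libraries and in 10 above (21.1% and 17.5%, against 22.7% and 20.1% of all genes). Csnk1e, the casein kinase that phosphorylates Dishevelled and Lrp6, had 10.7 and 7.65 RPKM in WT and 3.47 and 6.35 RPKM in JMJD1B-/- HSPCs (log2 fold change -0.93, SE 0.36, limma unadjusted p = 0.0347, adjusted p = 0.462). The genotypes did not overlap, and the call is lost without WT replicate 1, WT replicate 2 or JMJD1B-/- replicate 1, where the log2 fold change is -0.69, -1.17 and -0.50, and also under limma without a trend and the gene-by-gene test. Ryk, an atypical Wnt receptor, had 5.79 and 5.91 RPKM in WT and 8.46 and 10.6 RPKM in JMJD1B-/- HSPCs (log2 fold change 0.69, SE 0.26, limma unadjusted p = 0.0308, adjusted p = 0.445). Csnk2b, the regulatory subunit of casein kinase 2, had 37.0 and 39.8 RPKM in WT and 62.7 and 53.9 RPKM in JMJD1B-/- HSPCs (log2 fold change 0.60, SE 0.18, limma unadjusted p = 0.0117, adjusted p = 0.366). Ryk and Csnk2b were higher in each JMJD1B-/- library than in each WT library. RefSeq lists a pseudogene of Ryk too. Without WT replicate 1 or WT replicate 2 neither was called, with log2 fold changes of 0.67 and 0.70 for Ryk and 0.55 and 0.65 for Csnk2b. Ryk was not called either without JMJD1B-/- replicate 2 (0.53) or under the gene-by-gene test.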

How the data were processed

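RNA-seq of HSPCs was analysed from 2 WT and 2 JMJD1B-/- libraries (polyA RNA, TruSeq RNA kit). The authors deposited RPKM values with 1 added, which was subtracted, for genes that reach 1 RPKM in at least 1 library. The submitters' processing notes name TopHat2, Novoalign and mm9, without versions or roles, and the counting program and gene annotation are not given in the sources used here. Of 12024 entries, those of 42 repeated names were averaged, none of them a member. Values do not resolve into whole reads for most genes, so no count test was run. Depth was taken from 27 genes that gave one depth, where the next depth was given by 2.

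limma 3.58.1 in R 4.3.3 (lmFit, eBayes with a trend, two-sided) was run on log2(RPKM + 0.1) for genes with a mean of at least 0.5 RPKM, with Benjamini-Hochberg adjustment over all genes tested, and was tested on simulated data. Other steps used pandas 2.3.3, numpy 2.4.6 and scipy 1.17.1 under Python 3.11.15, with matplotlib 3.10.9 for plots. As 13 alternatives, other pseudocounts (1 and 0.01), no filter, a mean of at least 1 RPKM, median-ratio scaling, quantile normalization, limma without a trend, an equal-variance test of each gene alone (the gene-by-gene test), a replicate block and leaving out each library were run, where a lone library was assumed to vary like the other genotype.

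Members, pathway lists, marker lists and tests were chosen with earlier results of these data known. Values per library are given for members with an unadjusted p under 0.05, for members whose genotypes do not overlap with a log2 fold change of at least 0.5 in size, for the most abundant member of each role, and for Smad3, Ctnnb1, Tcf7 and Lef1. Of the further pathway genes, those with an unadjusted p under 0.05 are named, at most 8 a list. Ltbp3, Tgfbr1, Tgfbr2, Bmpr2, Smad5, Lrp5, Axin2, Gsk3a, Gsk3b, Apc, Pf4, Cd3g, Cd34, Flt3 and Gfi1b were added after their values were seen. The ChIP-seq samples were not analysed here.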

Additional observations from a re-analysis of the deposited data

How the results depend on the processing

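Most TGF-beta and BMP genes had a log2 fold change below 0, 20 to 23 under the 13 alternatives (of 28 genes, or fewer under the filter of 1 RPKM), while the number called varied. Genes called lower were 6 under median-ratio scaling, 5 each under quantile normalization, limma without a trend and the gene-by-gene test, and 0 to 7 when a library was left out, and those called higher were 0 to 1. Over all genes, the shares called lower were 6.30%, 6.02%, 6.47% and 4.32% under these 4 settings and 1.49% to 15.3% with a library left out, when 1.04% to 10.6% were called higher. The median was -0.093 under quantile normalization and -0.29 to -0.20 with a library left out. With a library left out, remaining knockout libraries were below remaining WT libraries in 13 to 17 genes and above in 1 to 6. Over all genes, these settings gave 31.9% to 49.0% below and 28.8% to 46.5% above. Quantile normalization gave 1 above, beside 25.01% of all genes under that setting.

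For the Wnt genes, limma without a trend and the gene-by-gene test each called 1 lower, the replicate block called 1 higher, and leaving out a library gave 0 to 3 lower and 0 to 2 higher, beside the shares of all genes just given and 4.81% called higher with the block. The median was 0.051 without a filter and with a mean of at least 1 RPKM, 0.028 under quantile normalization, and -0.20 to 0.24 with a library left out. By the same count, 7 to 12 genes were below and 4 to 9 above with a library left out. The shares of all genes below and above are those given for the TGF-beta and BMP genes. Quantile normalization gave 5 above, beside 25.01% of all genes under that setting.

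Of the further TGF-beta and BMP genes, 4 were lower with a pseudocount of 1, beside 6.69% of all genes. By the gene-by-gene test 2 were higher, beside 2.93% of all genes. Of the further Wnt genes, 2 were lower by limma without a trend, beside 6.47% of all genes, and 1 was higher by the gene-by-gene test. In both lists the counts changed when a library was left out, and so did the shares of all genes. Among 350 values for 27 named genes under the alternatives, 296 kept direction and side of the threshold, 23 lost the call, 23 gained it and 8 changed sign, each on leaving out 1 library. Their log2 fold changes then ranged from -0.44 to 0.12 for Tgfb1, -0.15 to 0.67 for Tgfbr3, -0.31 to 0.41 for Dvl1 (with -0.09 without WT replicate 1), -0.17 to 0.41 for Ctnnb1, -0.20 to 0.14 for Axin1, -0.039 to 0.47 for Ctnnbl1 and -0.020 to 0.24 for Lrp6. The cause was not tested.

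Over all genes, 751 were called lower and 452 higher, which became 914 and 571 with the replicate block, 177 and 123 without WT replicate 1, 272 and 250 without WT replicate 2, 1309 and 1258 without JMJD1B-/- replicate 1 and 1819 and 727 without JMJD1B-/- replicate 2. The share of lower calls was 62.4%, and 54.2% under median-ratio scaling or 51.6% under quantile normalization. Genes called after adjustment were 5, and 256 with the replicate block, and they reached 630 or 669 when JMJD1B-/- replicate 1 or 2 was left out. The replicate number marks no shared animal or day in the labels. The deviations of same-numbered libraries had a correlation of -0.05 across genes. Whether these libraries share a day or batch was not tested. With the block, Ltbp1 lost its call and Tcf7 gained one. Of the 7 members that reach 1 RPKM in a single library, 5 do so in JMJD1B-/- replicate 1, as do 291 of 626 listed genes. Depth limits genes near 1 RPKM.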
